A study of Homo sapiens with 6 samples.

Results

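The 43 genes described here are the cyclins, cyclin-dependent kinases, replication factors, mitotic regulators and INK4 inhibitors of the human cell cycle, chosen by gene symbol. All 43 were found among the 23754 features of the deposited table, and all 43 passed the filter on low counts that left 13991 features for the test. Poly(A)-selected RNA was sequenced from IMR-90, a line of human fetal lung fibroblasts that carried a doxycycline-inducible hairpin (sh-2) against ZNF469, a zinc finger protein linked to collagen expression, in the lentiviral vector Tet-pLKO-puro under puromycin selection. The 3 Control libraries came from uninduced cells (DOX-), which the submitted labels call wild-type, and the 3 Sh-ZNF469 libraries from cells given 2 µg/mL doxycycline (DOX+) for 4 days. Doxycycline and the hairpin were always given together, so their effects cannot be told apart, and 1 hairpin was sequenced. The submitted description calls the libraries technical replicates, so p-values measure only the spread between these libraries.

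In the cell cycle, D-type cyclins with CDK4 and CDK6 phosphorylate the retinoblastoma protein in G1, which frees E2F factors to switch on cyclin E and the genes of DNA replication. Later, in G2 and mitosis, FOXM1 and the MuvB complex with B-MYB drive a second wave of genes for the spindle, the kinetochore and the anaphase-promoting complex, through promoter elements called CHR. The INK4 proteins p16 (from CDKN2A) and p15 (from CDKN2B) block CDK4 and CDK6, and p16 is known to accumulate in fibroblasts as they age in culture.

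The plain result for these genes was how little their mRNA moved. Of the 43, 0 were higher and 1, the mitotic kinesin KIF20A, was lower in Sh-ZNF469 cells at an adjusted p (FDR) under 0.05 in edgeR's quasi-likelihood test, against 0.400% of all features tested higher and 0.715% lower. At an unadjusted p under 0.05, 1 of the 43 was higher and 10 were lower, where 7.31% and 7.69% of all features were. By DESeq2, a second count model, RRM2 was higher and KIF20A, CDC20, CENPF and PLK1 were lower at an adjusted p under 0.05, where 2.77% of the features with an adjusted p were higher and 2.85% lower; 4 of the 43 (CCND2, CCNE1, E2F2 and CDKN2B) were given none. The log2 fold changes of the 43 genes (Sh-ZNF469 against Control) ran from -0.21 for AURKB to 0.16 for CCNE1, with a median of -0.027 beside -0.0019 over all features. The 95% interval lay within a 1.2-fold change in either direction for 34 of the 43 and within 1.5-fold for all 43. Of the 13991 features tested, 7000 and 11065 had intervals that narrow. The median SE was 0.0452 for the 43 genes and 0.0761 over all features, so part of the narrowness is the precision of the fit. In bulk RNA, fewer cells in a phase and less RNA per cell cannot be told apart.

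**Figure D1:**
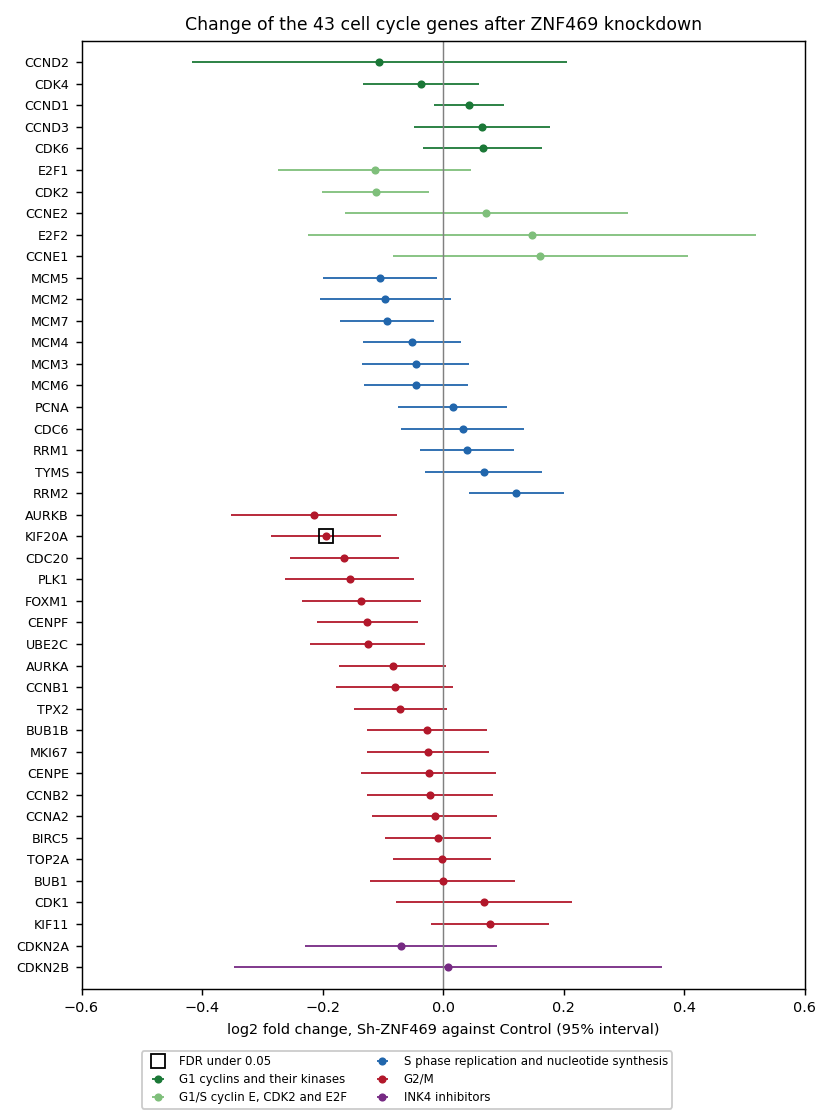
Log2 fold change of each of the 43 genes, Sh-ZNF469 against Control (points) with the 95% interval from edgeR's fit (lines, 3 libraries a group), coloured by phase and ordered by size within it; the square marks the FDR under 0.05. KIF20A alone carries the square, and of the 20 G2/M genes 18 sit left of 0 and 2 right of it.

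The libraries held 34057675 to 36120260 counts, and levels are given as counts scaled to library size by the TMM method (CPM), or as the deposited FPKM where genes are compared with each other. The sums over cell type markers and their cut at 1 CPM are the exception, scaled by total count alone. ZNF469, the targeted gene, stood at 118, 112 and 126 CPM in the Control libraries and at 80.4, 80.4 and 79.6 CPM in the Sh-ZNF469 libraries, so 67.5% of it remained (log2 fold change -0.57, SE 0.0477, edgeR adjusted p = 3.3e-05). All 9 fibroblast markers were expressed, and their summed level was 36594.5 to 37406.8 CPM in Control and 27722 to 28418.5 CPM in Sh-ZNF469 libraries. Most of that difference was COL1A1, at a mean of 15509 CPM in Control and 9610 CPM in Sh-ZNF469 cells, and COL1A2, at 10083 and 7107 CPM. COL3A1, DCN and LUM were also lower at an FDR under 0.05 by edgeR, while VIM, PDGFRA, PDGFRB and THY1 overlapped between groups, with log2 fold changes of -0.020, -0.0030, -0.016 and 0.037. None of 7 epithelial and 0 of 5 endothelial markers reached 1 CPM in any library, and 5 and 3 of them were at 0 throughout. Of the 5 leukocyte markers only CD68 reached 1 CPM and 2 were at 0, with a summed level of 60.4 to 66.4 CPM in Control and 59.8 to 65.5 CPM in Sh-ZNF469 libraries. Whether the lower collagen, DCN and LUM levels have a part in the values below was not tested. The Sh-ZNF469 replicate 2 library stood apart on the first principal component over all features, scoring 32.8 where the other 5 scored -12.6 to 0.52, and held the highest value of 12 and the lowest of 15 of the 43 genes. Without it KIF20A had a log2 fold change of -0.17.

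What the later genes share was read from the RefSeq promoter windows, from 250 bases before to 50 after a start, which were given for 32 of the 43 genes in 42 windows. Both strands were searched for the CHR letters TTTGAA and TTTAAA, for CCAAT, and for the E2F letters TTTCCCGC, TTTGGCGC, TTTCGCGC and TTTGCCGC. A CHR match stood in 13 of 17 windows of the G2/M genes (76.5%), in 2 of 13 windows of the S phase genes (15.4%) and in 24% of all 35116 windows of the table. The E2F letters were in 7 of 13 S phase windows (53.8%), in 2 of 17 G2/M windows (11.8%) and in 3.31% of all windows. The 2 G2/M windows are those of CDK1. Some genes have more than 1 window, with 17 G2/M windows from 15 genes and 13 S phase windows from 9. The shares are thus of windows and not of genes. Matches to CCAAT stood in 15 of 17 G2/M windows (88.2%) and 11 of 13 S phase windows (84.6%), beside 34.6% of all. The 3 windows of CDKN2A and CDKN2B held no match to any of these letters. A match describes the letters only and is not a bound site.

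The 250 bases before the start are shown for the G2/M genes and the S phase genes with the smallest p-values, KIF20A (chr5:138178862-138179111, plus strand), CDC20 (chr1:43358731-43358980, plus strand), RRM2 (chr2:10122489-10122738, plus strand) and MCM7 (chr7:100101398-100101647, minus strand), in RefSeq's GRCh38.p14. They are written 5′ to 3′ in the direction of the gene, and capitals mark a CHR, CCAAT or E2F match on either strand.
KIF20A: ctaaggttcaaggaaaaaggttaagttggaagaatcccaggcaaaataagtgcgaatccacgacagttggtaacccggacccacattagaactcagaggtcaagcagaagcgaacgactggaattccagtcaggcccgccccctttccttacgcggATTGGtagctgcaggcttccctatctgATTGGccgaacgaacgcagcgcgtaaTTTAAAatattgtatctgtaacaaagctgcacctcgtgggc
CDC20: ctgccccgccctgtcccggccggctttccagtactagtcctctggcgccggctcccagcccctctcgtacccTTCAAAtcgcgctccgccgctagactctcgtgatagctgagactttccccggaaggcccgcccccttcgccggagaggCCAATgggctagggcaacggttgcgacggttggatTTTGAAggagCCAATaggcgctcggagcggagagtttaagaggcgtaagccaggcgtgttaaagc
RRM2: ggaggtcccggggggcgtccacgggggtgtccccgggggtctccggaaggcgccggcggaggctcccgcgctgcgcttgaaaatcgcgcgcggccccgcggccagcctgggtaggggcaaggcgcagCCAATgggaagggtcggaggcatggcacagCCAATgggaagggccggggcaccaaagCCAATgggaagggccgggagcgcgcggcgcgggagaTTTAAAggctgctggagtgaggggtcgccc
MCM7: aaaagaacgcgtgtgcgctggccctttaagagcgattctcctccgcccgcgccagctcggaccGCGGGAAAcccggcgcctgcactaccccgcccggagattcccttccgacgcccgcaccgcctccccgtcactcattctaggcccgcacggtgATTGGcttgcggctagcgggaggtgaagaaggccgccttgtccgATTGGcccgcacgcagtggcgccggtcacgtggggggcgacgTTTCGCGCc
Distances are from 1 RefSeq start per gene, and for KIF20A, RRM2 and MCM7 the stretch shown lies inside the span of the gene. KIF20A and CDC20 have CHR letters 41 and 65 bases before that start and no E2F match in this stretch. MCM7 has 2 E2F matches, 9 and 187 bases before its start, and no CHR match. RRM2, a gene of S phase, has a CHR match at 30 bases and CCAAT at 66, 93 and 123 bases in the window shown. Its other window held no CHR match and 1 CCAAT match. The CCAAT matches of KIF20A are at 67 and 94 bases.

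The lowest values were among the 20 genes of G2 and mitosis, with AURKB and KIF20A at the end of the range. Their median log2 fold change was -0.049, 18 of 20 were negative (TOP2A, CCNA2, BUB1 and BIRC5, all near 0, turned positive with library size scaling), 7 were lower at an unadjusted p under 0.05 and 1 of those at an FDR under 0.05. For 9 of the 20 every Sh-ZNF469 library was below every Control library in CPM, and for 1, KIF11, every one was above. By the deposited FPKM the groups of PLK1, AURKA, UBE2C and TPX2, which are among the 9, overlapped. Over all features tested the groups did not overlap for 10.6% with Sh-ZNF469 lower and for 9.73% with Sh-ZNF469 higher. Among the 4749 features with a mean level in the range of these genes, 35.4 to 320 CPM, 11.1% were lower at an unadjusted p under 0.05, 13.4% were lower without overlap, and 48.4% were negative. The median stayed negative under every scaling and filter tried, from -0.085 with a GC trend removed to -0.028 with library size scaling. In those fits the median over all features was 0.0018 and 0.019.

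KIF20A (ENSG00000112984), a kinesin of the central spindle needed for cytokinesis, spans 138178719 to 138187723 of chromosome 5 (GRCh38). The level was 118, 122 and 126 CPM in Control replicates 1, 2 and 3 and 108, 103 and 109 CPM in Sh-ZNF469 replicates 1, 2 and 3, on 3654 to 4386 counts. Every Sh-ZNF469 library was thus below every Control library, and the mean went from 122 ± 3.80 to 106 ± 2.98 CPM (SD, n = 3). It fell by 0.19 on the log2 scale (SE 0.0419, 95% interval -0.29 to -0.10, edgeR adjusted p = 0.0462), and an exact permutation test, two-sided, gave p = 0.1, below which 6 libraries in 2 groups of 3 cannot go. The call was held by 8 of the 17 other fits and lost in each of the 6 that left out 1 library, with adjusted p-values of 0.0596 to 0.194, while the log2 fold change stayed between -0.22 and -0.16. Its exons share 206 bases with BRD8 and CDC23 on the other strand, and whether the counting used strand is not stated in the sources used here.

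CDC20, the activator of the anaphase-promoting complex, stood at 121, 115 and 120 CPM in Control libraries and at 108, 102 and 107 CPM in Sh-ZNF469 libraries. The groups did not overlap, and the level was 89.3% of Control. Its log2 fold change of -0.16 (SE 0.0416, 95% interval -0.25 to -0.074) had an adjusted p of 0.0827 in edgeR's test and 0.00951 in DESeq2.

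Other regulators of mitotic entry and exit gave values of the same size without passing the FDR in edgeR's fit. AURKB, the kinase of the chromosomal passenger complex, was at 38.0 ± 1.61 CPM in Control and 32.8 ± 2.55 CPM in Sh-ZNF469 cells (SD, n = 3, log2 fold change -0.21, adjusted p = 0.139). The polo-like kinase PLK1 was at 120 ± 7.23 and 108 ± 4.19 CPM (-0.16, adjusted p = 0.166). FOXM1, the transcription factor of the G2 wave, was at 104 ± 5.01 and 95.1 ± 2.54 CPM (-0.14, adjusted p = 0.185). CENPF, a kinetochore protein, and UBE2C, the ubiquitin-conjugating enzyme of the anaphase-promoting complex, both had -0.13, with adjusted p-values of 0.156 and 0.205. In CPM the groups did not overlap for any of these 5 genes, nor for AURKA (-0.084) and TPX2 (-0.071), the spindle kinase and its activator, whose unadjusted p-values were 0.063 and 0.0676. FOXM1 shares 782 exonic bases and PLK1 611 with genes on the other strand.

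The usual proliferation markers sat near 0. MKI67, which encodes the antigen Ki-67, was at 135, 134 and 147 CPM in Control and 131, 138 and 140 CPM in Sh-ZNF469 libraries. These ranges overlapped, and the level in Sh-ZNF469 cells was 98.2% of Control (95% interval 91.6% to 105%, adjusted p = 0.845 by edgeR). TOP2A, the topoisomerase that untangles chromosomes, was at 318, 333 and 308 CPM and at 315, 329 and 315 CPM, or 99.9% of Control (interval 94.4% to 106%, adjusted p = 0.989 by edgeR). CDK1, the kinase of mitotic entry, varied more from library to library, at 66.0, 71.0 and 58.4 CPM in Control and 67.4, 73.1 and 64.2 CPM in Sh-ZNF469 libraries. Its log2 fold change was 0.067 (SE 0.0674, edgeR adjusted p = 0.689), and the groups overlapped.

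The partner cyclins of CDK1 followed neither direction clearly. The log2 fold change was -0.081 for CCNB1, -0.022 for CCNB2 and -0.014 for CCNA2, with edgeR adjusted p-values of 0.43, 0.878 and 0.926. The spindle checkpoint kinases BUB1 and BUB1B were at -0.0010 and -0.027, the kinetochore motor CENPE at -0.024 and the passenger protein survivin (BIRC5) at -0.0090, and none had an adjusted p under 0.83. KIF11, the motor that separates the spindle poles, was at 74.0, 74.4 and 69.8 CPM in Control and 75.3, 79.8 and 75.1 CPM in Sh-ZNF469 libraries, a value of 0.077 with an edgeR adjusted p of 0.453.

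**Figure D2:**
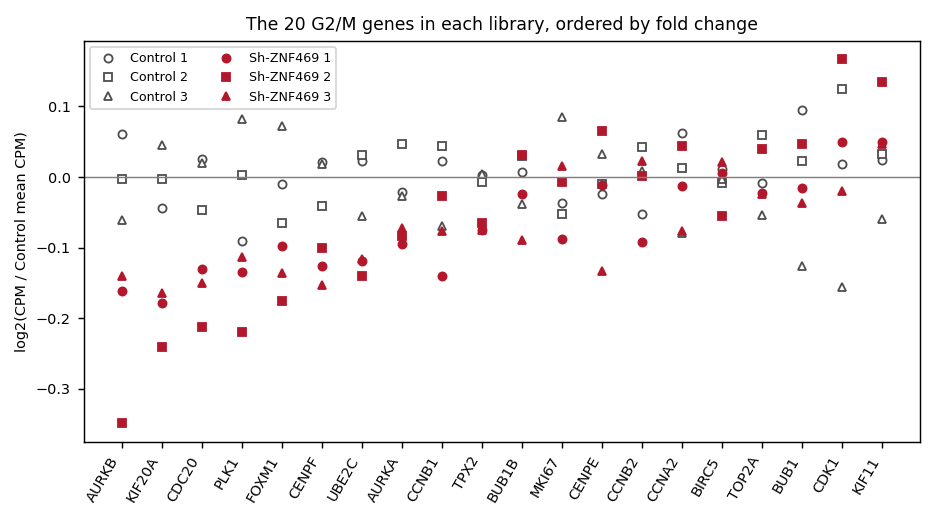
Level of each of the 20 G2/M genes in each library, as log2 of its CPM over the Control mean (vertical axis), with genes ordered by fold change; open symbols are Control and filled symbols Sh-ZNF469 libraries, with 1 shape per replicate number. From AURKB to TPX2 the filled symbols lie below the open ones, with CCNB1 the exception that overlaps, and from BUB1B to CDK1 the groups mix.

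Summed over the 20 genes, the G2/M level was 2108, 2123 and 2092 CPM in Control replicates 1, 2 and 3 and 2006, 2037 and 2007 CPM in Sh-ZNF469 replicates 1, 2 and 3. The Sh-ZNF469 mean was thus 4.31% below the Control mean of 2108 ± 15.3 CPM, and 3.80% below it with KIF20A left out. The 11 S phase genes summed to 1276 ± 4.31 CPM in Control and 1275 ± 5.95 CPM in Sh-ZNF469 cells, a difference of 0.081%. Within that sum the 6 MCM genes were lower and the other 5 genes higher. The median log2 fold change was -0.045 for the S phase genes and -0.049 for G2/M. These sums were formed after the genes were chosen with results of these data known, so no test is given for them.

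Among the S phase genes 5 were positive and 6 negative, and the median log2 fold change of -0.045 was close to the -0.049 of G2/M. All 11 had a 95% interval within 1.2-fold. The 6 subunits of the MCM helicase, which opens DNA at replication origins, were all negative, from -0.11 for MCM5 to -0.045 for MCM6, and stayed negative in all 17 other fits. MCM7 was at 179, 179 and 183 CPM in Control and 170, 166 and 172 CPM in Sh-ZNF469 libraries, without overlap (log2 fold change -0.093, SE 0.0361, edgeR adjusted p = 0.245). MCM4, MCM5 and MCM6 also had no overlap between groups in CPM, while MCM2 and MCM3 had. By the deposited FPKM the groups of MCM6 overlapped. Of the 11 genes, 4 (36.4%) were lower and 1 (9.09%) higher without overlap, beside 10.6% and 9.73% of all features. MCM7 shares 421 exonic bases with AP4M1 and the microRNA gene MIR93, and MCM2 shares 1113 with a long non-coding RNA.

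RRM2, the small subunit of ribonucleotide reductase, was at 176, 182 and 180 CPM in Control and 194, 199 and 191 CPM in Sh-ZNF469 libraries. Each Sh-ZNF469 library was above each Control library, and the level was 109% of Control (95% interval 103% to 115%). The log2 fold change of 0.12 (SE 0.0364) had an adjusted p of 0.144 in edgeR's test and of 0.021 in DESeq2, and it was positive in all 17 other fits. RRM1, the large subunit, and TYMS, thymidylate synthase, were at 0.039 and 0.067, with edgeR adjusted p-values of 0.66 and 0.514.

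PCNA, the sliding clamp of the replicative polymerases, was at 135, 140 and 133 CPM in Control and 132, 141 and 139 CPM in Sh-ZNF469 libraries. The groups overlapped, and the level was 101% of Control (95% interval 94.9% to 108%, edgeR adjusted p = 0.902). CDC6, which loads the helicase at origins, was at 41.6 ± 1.02 and 42.6 ± 0.566 CPM (edgeR adjusted p = 0.798).

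**Figure D3:**
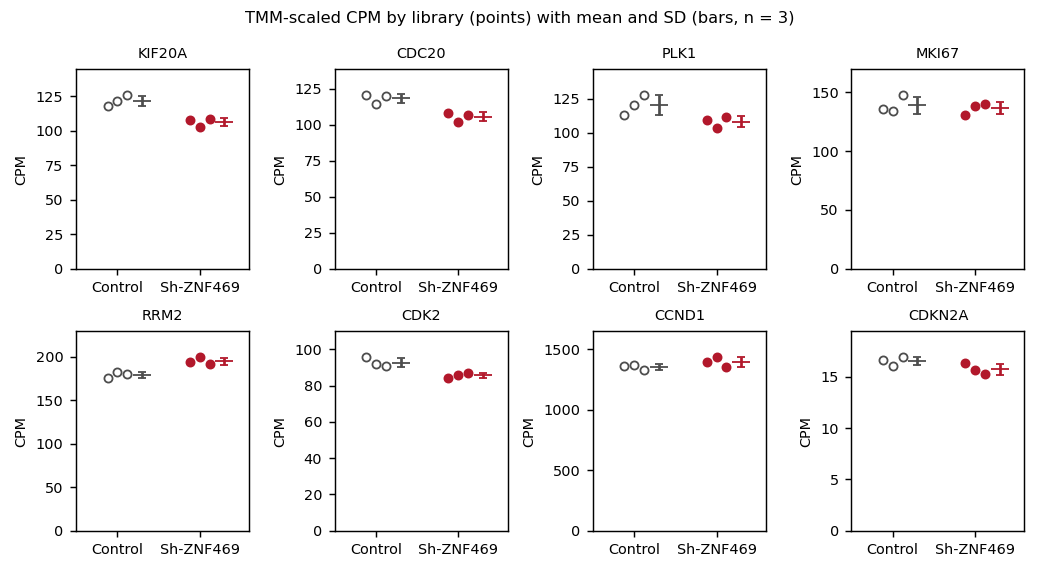
CPM (vertical axes, each starting at 0) of 8 genes in each library (points) with the mean and SD of the 3 libraries of a group (bars). KIF20A, CDC20, PLK1 and CDK2 lie lower in every Sh-ZNF469 library and RRM2 higher, while MKI67, CCND1 and CDKN2A overlap between groups.

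At the G1/S step, CDK2, the partner of cyclin E, was at 95.6, 91.7 and 90.8 CPM in Control and 84.4, 85.8 and 87.2 CPM in Sh-ZNF469 libraries. The groups did not overlap in CPM but did by the deposited FPKM, and the level was 92.5% of Control (log2 fold change -0.11, SE 0.0411, edgeR adjusted p = 0.221). CDK2 shares 654 exonic bases with PMEL and a long non-coding RNA on the other strand. E2F1 was at 32.7, 32.7 and 34.7 CPM in Control and at 34.7, 27.9 and 29.99 CPM in Sh-ZNF469 libraries, so that Sh-ZNF469 replicate 1 reached the highest Control value (-0.11, SE 0.0741, edgeR adjusted p = 0.504). CCNE1, CCNE2 and E2F2 were on the positive side, at 0.16, 0.071 and 0.15, with adjusted p-values of 0.537, 0.807 and 0.738. They are among the least abundant of the 43 genes, and E2F2 had 96 to 138 counts per library, so its 95% interval of -0.22 to 0.52 was the widest.

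The G1 group, which receives growth signals, held no gene that passed the test, at adjusted p-values from 0.484 upward. CCND1, cyclin D1, was at 1357, 1372 and 1330 CPM in Control and 1396, 1432 and 1352 CPM in Sh-ZNF469 libraries. Its groups overlapped, and the level was 103% of Control (95% interval 99.0% to 107%). CDK4 was at 136, 149 and 137 CPM and at 140, 133 and 138 CPM (log2 fold change -0.037, edgeR adjusted p = 0.75), and shares 1369 exonic bases with TSPAN31 on the other strand. CDK6 was at 191, 181 and 175 CPM and at 185, 201 and 186 CPM (0.065, edgeR adjusted p = 0.534). CCND3 and CCND2 were at 0.064 and -0.11, with adjusted p-values of 0.609 and 0.782.

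Per transcript length, the order of the D-type cyclins in Control cells was CCND1 at 283 ± 7.30 FPKM, CCND3 at 44.5 ± 2.54 FPKM and CCND2 at 0.887 ± 0.101 FPKM (SD, n = 3). CDK4 was at 65.9 ± 4.37 FPKM and CDK6 at 14.3 ± 0.753 FPKM. The other genes ran from PCNA at 90.8 FPKM and TYMS at 69.2 FPKM in S phase, through UBE2C at 65.3 and CDC20 at 63.2 FPKM in G2/M, neighbours within 1 SD of each other, down to MKI67 at 9.87 and CENPE at 7.16 FPKM. Cyclin E was low, with CCNE1 at 3.46 ± 0.211 and CCNE2 at 3.76 ± 0.708 FPKM, which also lay within 1 SD of each other, and E2F2 was the lowest of the 43 at 0.507 FPKM. CCNE2 shares 1633 exonic bases, TYMS 1160 and CCND2 1105 with other genes. Whether these overlaps add to their levels was not tested.

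Neither INK4 inhibitor passed the test, and both had overlapping groups. CDKN2A (ENSG00000147889), spanning 21967752 to 21995301 of chromosome 9 (GRCh38), was at 16.6, 16.1 and 16.9 CPM in Control and 16.3, 15.7 and 15.3 CPM in Sh-ZNF469 libraries. The fold change was small (log2 -0.070, SE 0.0736, 95% interval -0.23 to 0.089, edgeR adjusted p = 0.704), and the gene was at 12.2 ± 0.0267 FPKM in Control and 11.9 ± 0.368 FPKM in Sh-ZNF469 cells. Counts per gene do not separate the p16 transcript from the ARF transcript of the same locus, and 593 exonic bases are shared with the antisense RNA CDKN2B-AS1. CDKN2B was at 6.35, 4.24 and 5.22 CPM in Control and 5.97, 5.33 and 4.58 CPM in Sh-ZNF469 libraries, on 149 to 215 counts. Its log2 fold change of 0.0081 (SE 0.164, edgeR adjusted p = 0.989) leaves room for 78.6% to 129% of the Control level.

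By the deposited FPKM, CDKN2A at 12.2 was below its target kinases CDK4 at 65.9 and CDK6 at 14.3 in Control cells. CDKN2B was lower still at 1.24 ± 0.213 FPKM. The transcript lengths behind the FPKM are not given in the sources used here, and the order of CDKN2A and CDK6 may depend on them. CDKN1A, the p21 inhibitor and a target of p53, was the most abundant inhibitor at 345 ± 5.41 FPKM in Control and 341 ± 8.26 FPKM in Sh-ZNF469 cells. In CPM it was at 841, 846 and 840 in Control and 819, 808 and 837 in Sh-ZNF469 libraries. In CPM each Sh-ZNF469 library was lower by a small margin, as was so for 10.6% of all features (log2 fold change -0.037, SE 0.0263, edgeR adjusted p = 0.548). By FPKM the groups overlapped, with Sh-ZNF469 replicate 3 at 350 above the highest Control value of 349.

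**Figure D4:**
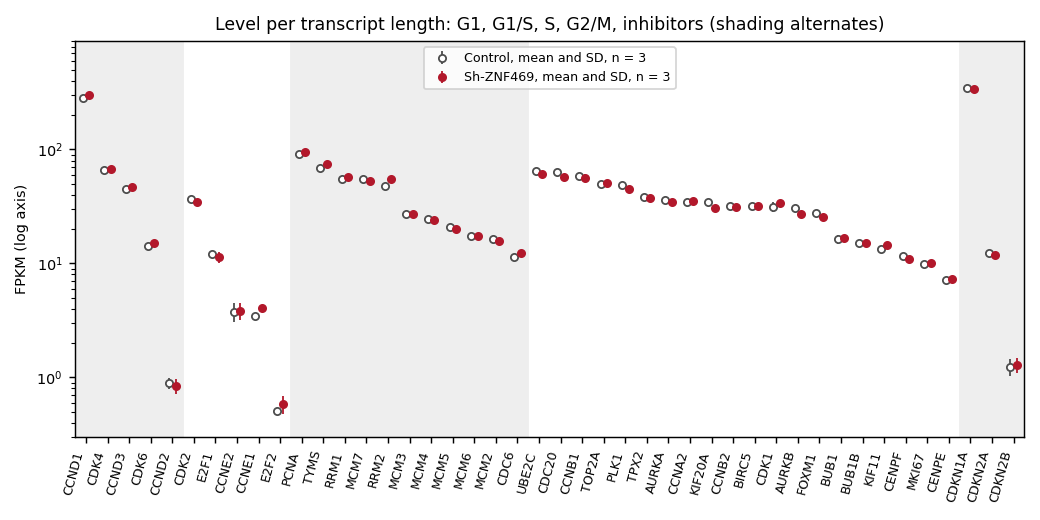
Deposited FPKM (vertical log axis) of the 43 genes and of CDKN1A, as the mean and SD of 3 Control libraries (open) and 3 Sh-ZNF469 libraries (filled), in blocks for G1, G1/S, S, G2/M and the inhibitors, ordered by level within each. CCND1 and CDKN1A stand above the rest, at 283 and 345 FPKM in Control, and in every gene both groups lie close together.

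The wider machinery was followed in 112 further genes in 4 lists, of which 0 were higher and 0 lower at an FDR under 0.05 by edgeR, and 2, CKS1B and UBE2S, were lower by DESeq2, where 2.85% of the features with an adjusted p were. At an unadjusted p under 0.05, 3 of the 112 were higher (2.68%, against 7.31% of all features) and 18 lower (16.1%, against 7.69%). Of 49 other mitotic genes, 0 were higher and 11 lower (22.4%) at that unadjusted p, with a median log2 fold change of -0.038. CKS1B, a small subunit of cyclin-dependent kinases, was at 61.7, 65.1 and 59.6 CPM in Control and 56.4, 53.6 and 53.1 CPM in Sh-ZNF469 libraries, without overlap (-0.19, SE 0.0485, edgeR adjusted p = 0.0825). Of 41 other replication genes, 2 were higher (4.88%) and 6 lower (14.6%), and the median was 0.010. POLD1, the catalytic subunit of polymerase delta, was at 35.4 CPM in each Control library and at 33.4, 27.0 and 31.3 CPM in the Sh-ZNF469 libraries (-0.21, SE 0.0707, edgeR adjusted p = 0.185).

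The 17 genes of the retinoblastoma, E2F and DREAM complexes had a median of 0.040. At an unadjusted p under 0.05, 0 were lower and 1 was higher (5.88%, against 7.31% of all features). That gene, E2F3, was at 38.5, 35.1 and 39.2 CPM in Control and 40.1, 44.1 and 40.7 CPM in Sh-ZNF469 libraries (0.15, SE 0.0592, edgeR adjusted p = 0.265). Of 5 other inhibitors of cyclin-dependent kinases, 1 was lower at an unadjusted p under 0.05, CDKN2C, the INK4 protein p18. Over all features 7.69% were lower at that p, and 10.6% were lower without overlap. Its values were 33.0, 33.2 and 36.8 CPM in Control and 30.8, 31.1 and 30.3 CPM in Sh-ZNF469 libraries, without overlap (-0.16, SE 0.0583, edgeR adjusted p = 0.215).

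**Figure D5:**
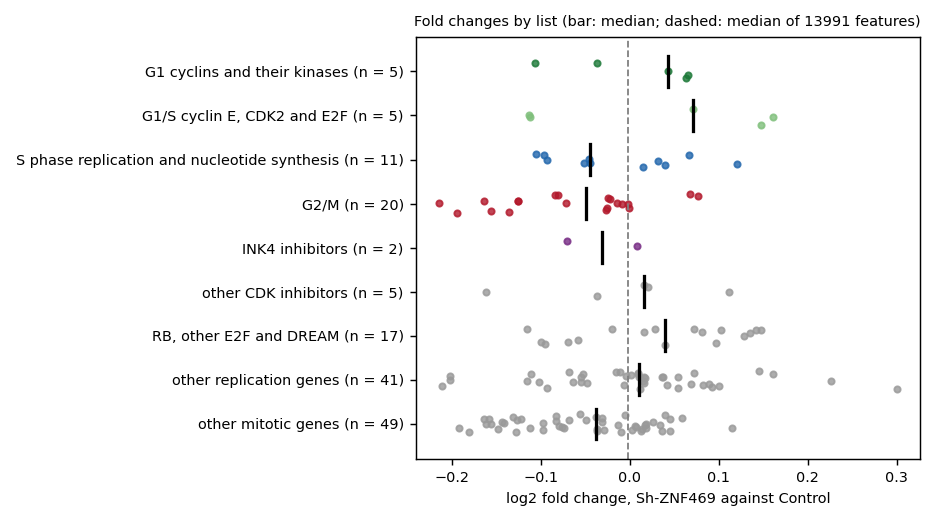
Log2 fold change, Sh-ZNF469 against Control, of each gene (points) in the 5 phase groups of the 43 genes (coloured) and the 4 further lists (grey), with the median of each list (bar) and of all 13991 features (dashed line); vertical scatter within a row has no meaning. The medians run from -0.049 in G2/M to 0.071 in G1/S, and single genes lie between -0.21 and 0.30.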

How the data were processed

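According to the labels and methods, the authors used HISAT2 to align reads to GRCh38, then StringTie; versions, annotation, counting step and use of strand are not given in the sources used here. The authors deposited a whole, unnormalized count per gene and library. They also deposited FPKM values, averaged here per group and tested only as an alternative. Groups came from the sample titles. Of the lines in the table, 17 with no gene or values were dropped.

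Counts were tested in R 4.3.3 with edgeR 4.0.16: filterByExpr (minimum count 10), TMM scaling, a quasi-likelihood test with no covariate, and p-values adjusted by Benjamini-Hochberg over 13991 features. The SE is the absolute log2 fold change over the square root of F, and 95% intervals use the fit's t distribution and cover only the spread between libraries. Alternatives were other filters and scalings, DESeq2 1.42.0, limma 3.58.1 (voom, and log2(FPKM + 1)), other thresholds, fits without each library in turn, a replicate block, and lowess trends (span 0.3) on GENCODE transcript length or GC content. Scripts were tested on simulated data. The chi-square between libraries, per degree of freedom, was 4.53 to 8.25 within and 12.3 to 21.9 between groups, so none was a duplicate. A second unit, AC007240.1, which the table also ties to RRM2, was not added to it.

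The 43 genes, the further lists and the phases were chosen with earlier results of these data known. Values per library are given for ZNF469, each gene past the FDR, the 2 genes with the smallest p in each phase, MKI67, TOP2A, CDK1, PCNA, CCND1, CDK4, CDKN2A, CDKN2B, CDKN1A and the gene with the smallest p of each further list. KIF11 was added after its values were seen. Promoter windows of CCND1, CCND2, CDK2, CCNE2, MCM4, MCM5, UBE2C, BIRC5, AURKA, TPX2 and FOXM1 were not analysed here.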

Additional observations from a re-analysis of the deposited data

How the results depend on the processing

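ZNF469 kept its direction and its call in all 17 other fits. Of the log2 fold changes of the 43 genes in those fits, 663 kept direction and side of the threshold, 7 gained a call, 9 lost one (all KIF20A) and 52 changed sign without a call.

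Over all features, 56 were higher and 100 lower in the reported fit, against 127 and 163 with every feature counted at all, 88 and 77 with library size scaling, 260 and 267 by DESeq2, 147 and 178 with a GC trend removed, 6 and 24 by limma on FPKM, 1023 and 1076 at an unadjusted p under 0.05, 147 and 192 at an FDR under 0.1, and 2 and 4 where the log2 fold change also had to exceed 1 in size.

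Leaving out 1 library gave 20 to 69 higher and 54 to 92 lower features, with 0 of the 43 genes called in either direction. Library size scaling put 53.3% of the calls on the higher side.

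Of the 43 genes, 0 were lower with library size scaling, upper-quartile scaling, FPKM, or a log2 fold change over 1 in absolute size. A length trend or a GC trend removed left 2 lower (KIF20A and CENPF), an FDR under 0.1 gave 2 (KIF20A and CDC20), DESeq2 4 with 1 higher, and an unadjusted p under 0.05 10 with 1 higher. Of the 112 further genes, 2 were lower by DESeq2, 2 with a GC trend removed and 1 at an FDR under 0.1, and 18 were lower and 3 higher at an unadjusted p under 0.05. The cause of these moves was not tested.

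Replicate numbers are shared by both groups, but same-numbered libraries did not deviate together over all features (correlations of -0.024, -0.035 and 0.036), so the numbers were not taken as pairs. Over the 43 genes alone the same-numbered correlations were 0.41, 0.31 and 0.33 and the others -0.55 to 0.23. With the replicate block, 135 features were higher and 157 lower, and 2 of the 43 genes were lower (KIF20A, and CDC20 with an adjusted p of 0.0453 in edgeR's fit). The sign of BUB1 turned to 0.00088 under this block.

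The median of all 43 genes ran from -0.050 to -0.034 with 1 library left out, and was -0.0060 with library size scaling, -0.046 with a GC trend removed, 0.0089 with FPKM. Over all features tested the median moved as well, to 0.019 with library size scaling and 0.022 with FPKM. With a length or a GC trend removed it was 0.0017 and 0.0018, beside -0.0019 in the reported fit. The median of G2/M ran from -0.072 to -0.041 with 1 library left out, and was -0.028 with library size scaling, -0.085 with a GC trend removed. The median of S phase ran from -0.050 to -0.019 with 1 library left out, and was -0.024 with library size scaling, -0.038 with a length trend removed, -0.025 with a GC trend removed, -0.0075 with FPKM. The median of G1/S ran from -0.012 to 0.15 with 1 library left out, and was -0.018 with a GC trend removed. That of the INK4 pair ran from -0.11 to 0.049 with 1 library left out.

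Log2 fold changes that changed sign were these. CDK4 was 0.020 with FPKM, and -0.062 to 0.0064 with 1 library left out. CCNE2 was -0.018 with a GC trend removed, and -0.012 to 0.15 with 1 library left out. PCNA was -0.010 with a GC trend removed, and -0.0024 to 0.044 with 1 library left out. MKI67 was 0.018 with FPKM, and -0.051 to 0.019 with 1 library left out. TOP2A was 0.019 with library size scaling, 0.00077 with upper-quartile scaling, 0.00049 with DESeq2's size factors, 0.00047 with DESeq2, 0.035 with FPKM, and -0.028 to 0.029 with 1 library left out. CDK1 was -0.018 with a GC trend removed, and -0.0049 to 0.13 with 1 library left out. CCNB2 was 0.021 with a length trend removed, and -0.047 to 0.012 with 1 library left out. CCNA2 was 0.0067 with library size scaling, 0.023 with FPKM, and -0.052 to 0.019 with 1 library left out. BUB1 was 0.00030 with every feature counted at all, 0.020 with library size scaling, 0.0017 with upper-quartile scaling, 0.0014 with DESeq2's size factors, 0.0014 with DESeq2, 0.0017 with limma-voom, 0.036 with FPKM, and -0.060 to 0.049 with 1 library left out. BUB1B was 0.0089 with FPKM, and -0.055 to 0.0044 with 1 library left out. CENPE was 0.021 with FPKM, and -0.070 to 0.028 with 1 library left out. BIRC5 was 0.012 with library size scaling, 0.0081 with a length trend removed, 0.0090 with a GC trend removed, 0.017 with FPKM, and -0.024 to 0.015 with 1 library left out. CDKN2B was -0.0016 with a length trend removed, -0.013 with a GC trend removed, and -0.13 to 0.16 with 1 library left out.

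The largest SEs among the 43 genes were those of E2F2 (0.172), CDKN2B (0.164), CCND2 (0.144) and CCNE1 (0.113), which also had the lowest counts. How much of the spread is counting error was not tested. The 95% intervals hold the spread between the 3 libraries of a group only.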
